A study of Mus musculus with 6 samples.

Results

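The genes examined here write, maintain and erase the methyl mark on cytosine in DNA. They were the rows of the deposited count table whose Ensembl identifiers belong to the listed methyltransferase genes Dnmt1, Dnmt3a and Dnmt3b, their helpers Uhrf1 and Hells, and the oxidase genes Tet1, Tet2 and Tet3. All 8 were found among 41388 identifiers, and 7 of them passed the filter on low counts, which Tet1 did not. The livers came from mice of a mixed C57BL and 129S6/SvEv background at 6 weeks of age, of both sexes by the labels, and ate a rodent diet with 16 ppm copper, 100 ppm zinc and 235 ppm iron. The Atp7b-/- group, with 3 libraries, lacks Atp7b, a copper pump whose human gene is mutated in Wilson disease; the labels name neither the allele nor a tissue that limits it. The wild type group, also with 3 libraries, had the same background and diet. The question was whether transcripts of the DNA methylation machinery differ between livers without Atp7b and wild type livers.

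Methyl groups sit mostly on cytosines that are followed by guanine (CpG). When DNA is copied the new strand is unmethylated, so Uhrf1 binds the half-methylated CpG and brings Dnmt1, which copies the mark, while Hells is a chromatin remodeller that opens packed DNA to this machinery. Dnmt3a and Dnmt3b set new marks. The TET enzymes oxidise methylcytosine, after which the base is lost by dilution during replication or by base excision repair. Most hepatocytes of an adult liver do not divide, and Dnmt1, Uhrf1 and Hells are best known from cells in S phase.

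Genes of DNA replication often carry sites for the E2F family of cell cycle factors, so the letters before the transcript starts are shown first. In the 250 bases before each RefSeq transcript start (GRCm38.p6, 13 starts for the 8 genes), a script searched both strands for the letters TTTCCCGC, TTTCGCGC, TTTGCCGC and TTTGGCGC, spellings of the E2F consensus. They were present in 3 of the 13 windows, one each of Dnmt1, Uhrf1 and Hells, and in 1.86% of 32851 windows of all genes. They were absent from these windows for Dnmt3a, Dnmt3b and the TET genes. Each of the following 30 bases is written along the gene's own strand, with the match in capitals, and the Dnmt1 match lies on the opposite strand (chr9:20952824-20952853, minus strand, chr17:56304117-56304146, plus strand, and chr19:38930917-38930946, plus strand).
Dnmt1: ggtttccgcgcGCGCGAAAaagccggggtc
Uhrf1: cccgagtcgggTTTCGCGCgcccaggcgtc
Hells: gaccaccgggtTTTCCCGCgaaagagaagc
The Uhrf1 match begins 185 bases before a transcript start inside the gene, and the whole window is given as an example of a CpG-rich start with 30 CpG pairs (chr17:56304063-56304312, plus strand, E2F letters in capitals).
Uhrf1: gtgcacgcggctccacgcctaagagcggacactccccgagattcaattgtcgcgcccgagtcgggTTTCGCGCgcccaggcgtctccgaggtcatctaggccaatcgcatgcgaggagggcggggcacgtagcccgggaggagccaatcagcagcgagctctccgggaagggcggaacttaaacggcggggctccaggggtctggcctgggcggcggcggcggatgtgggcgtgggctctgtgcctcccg
Each match lies inside the annotated span of its gene, and the Dnmt1 window overlaps 2 annotated exons and the Hells window 1. A match is a run of letters and not a measured binding site. Among the S phase genes listed below, 5 of 18 genes with a promoter entry had such letters before a start, and among the mitosis genes 1 of 14.

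Each of the genes also has a start with more CpG pairs than the median start, and whether these pairs are methylated was not measured. The median over all starts was 6 CpG pairs in 250 bases. Tet2 had 51, more than 99.9% of all starts, and the densest Dnmt3a start had 40. Not every start was dense: those of Dnmt1 had 26, 7 and 2, and the other Uhrf1 start had 10. Dnmt3b and Tet3 are shown because they had the largest estimate and the smallest p below, with each CpG in capitals (chr2:153649199-153649448, plus strand, 21 CpG pairs, and chr6:83441679-83441928, minus strand, 17 CpG pairs).
Dnmt3b: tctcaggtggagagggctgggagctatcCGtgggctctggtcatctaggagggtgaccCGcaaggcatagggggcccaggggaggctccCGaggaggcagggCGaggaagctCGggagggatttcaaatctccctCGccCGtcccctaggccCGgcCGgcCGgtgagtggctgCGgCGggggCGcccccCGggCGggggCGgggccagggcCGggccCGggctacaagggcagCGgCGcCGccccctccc
Tet3: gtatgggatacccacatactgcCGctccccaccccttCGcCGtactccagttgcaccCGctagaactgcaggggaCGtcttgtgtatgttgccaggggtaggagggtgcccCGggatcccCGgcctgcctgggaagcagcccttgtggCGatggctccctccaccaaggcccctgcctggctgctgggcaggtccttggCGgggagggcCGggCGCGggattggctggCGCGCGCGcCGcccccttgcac
Counts per gene do not tell which of several starts was used. The cores TGCACNC and TGCGCNC of the metal response element, the site of the metal-sensing factor MTF1, were present on either strand before 4 of the 13 starts, 3 times before Tet2 and once each before Tet3, a Dnmt1 start and a Uhrf1 start, and before 21.4% of all starts.

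Total counts ranged from 6746192 to 25973968 in Atp7b-/- and from 5919389 to 23651080 in wild type libraries. Each genotype has both read layouts, with paired reads in Atp7b-/- replicate 3 and wild type replicate 1 and single reads elsewhere, and the fit carries a term for layout. In that fit 52.8% of 12988 tested genes were called between paired-end and single-end libraries (adjusted p under 0.05, edgeR). The paired-end libraries were also the deepest. Mitochondrial genes held 8.14% of counts in the Atp7b-/- and 7.74% in the wild type paired-end library, against 2.50% to 4.15% in single-end libraries. Layout cannot be told apart from these differences. By the labels the single-end libraries were male in Atp7b-/- and female in wild type, and the paired-end ones female and male. A genotype difference within a layout, and its change between layouts, therefore cannot be told apart from labelled sex. The labelled sex did not match the transcripts in every library. Atp7b-/- replicate 3, labelled female, had 0.482 CPM (counts scaled to a common library total with edgeR's TMM factors) of Xist, the RNA of the inactive X, and 295 CPM of 4 Y-linked genes together, while wild type replicate 3, labelled female, had 17.4 CPM of Xist and 59.5 CPM of those Y-linked genes. Atp7b-/- replicates 1 and 2, labelled male, had 0.117 and 0.702 CPM of Xist and 86.5 and 83.8 CPM of the Y-linked genes. Wild type replicate 1, labelled male, had 1.01 CPM of Xist and 342 CPM of the Y-linked genes. Wild type replicate 2, labelled female, had 371 and 0.680 CPM. Both paired-end libraries thus had little Xist and high Y-linked levels. The estimates without Atp7b-/- replicate 3 and without wild type replicate 3 stand with each tested gene, and livers 1 to 3 are replicates 1 to 3. Atp7b itself stood at 19.2, 13.7 and 13.3 CPM in Atp7b-/- livers 1 to 3, against 25.3, 85.2 and 59.7 CPM in wild type livers 1 to 3. The labels do not state that every library is a separate animal, so the p-values measure the spread between libraries.

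None of the 7 tested genes was called between the genotypes at an adjusted p under 0.05 in edgeR's quasi-likelihood test, where 2.49% of all tested genes were (1.9% higher and 0.585% lower in Atp7b-/-). One of them, Tet3, had an unadjusted p under 0.05, as did 14.5% of all genes. In DESeq2, which called 5.93% of all genes, 1 of the 7 was called, again Tet3, and in limma-voom, which called 3.05%, none was. The CPM ranges of the 3 Atp7b-/- and 3 wild type libraries overlapped for every one of the 8 genes, whereas 8.51% of all tested genes had ranges that did not overlap. The median log2 fold change of the 7 genes was -0.10 (range -0.56 to 0.99), against -0.01 over all tested genes.

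**Figure D1:**
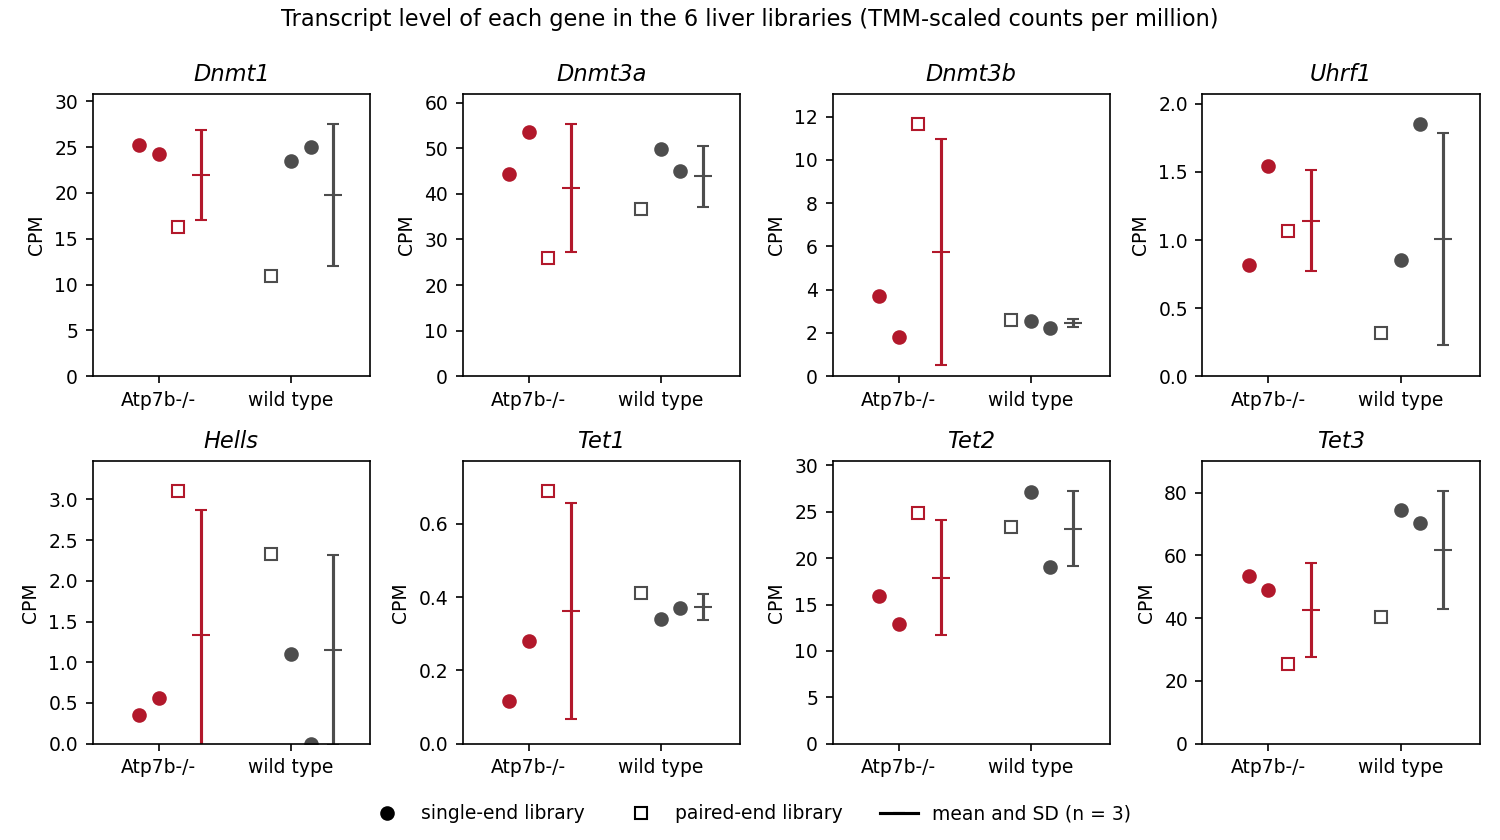
TMM-scaled CPM (y axes) of the 8 genes in Atp7b-/- and wild type livers, with filled circles for single-end and open squares for paired-end libraries, and bars for mean and SD of 3 libraries. The groups overlap in every panel, Tet3 is lower in Atp7b-/- than in wild type within each layout, and Dnmt3b stands at 11.7 CPM in a single Atp7b-/- library.

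Dnmt1 (ENSMUSG00000004099, chromosome 9, 20907209 to 20959888, minus strand, GRCm38), which copies the mark after replication, was measured at nearly the same level in single-end livers of both genotypes. It stood at 25.2, 24.3 and 16.3 CPM in Atp7b-/- livers 1 to 3, against 10.9, 23.5 and 25.0 CPM in wild type livers 1 to 3. The lowest value of each genotype was its paired-end library, and the single-end libraries of both genotypes lay close together. The log2 fold change was 0.22 (SE 0.20, 95% interval -0.25 to 0.68, adjusted p = 0.69). Without the paired-end libraries the estimate was 0.035, and over all 13 alternatives it was positive, up to 0.30. It was 0.043 without Atp7b-/- replicate 3 and 0.29 without wild type replicate 3.

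Uhrf1 (ENSMUSG00000001228, chromosome 17, 56303321 to 56323486, plus strand), the reader that guides Dnmt1, was rare. It had 14, 11 and 31 counts in Atp7b-/- livers 1 to 3, against 7, 10 and 10 counts in wild type livers 1 to 3. That is 1.14 ± 0.369 CPM in Atp7b-/- and 1.01 ± 0.779 CPM in wild type livers (SD, n = 3 each), and the single-end libraries of the genotypes interleave. Its log2 fold change of 0.49 had an interval from -0.92 to 1.89 (SE 0.62, adjusted p = 0.785), and it was -0.17 without Atp7b-/- replicate 3 and 0.98 without wild type replicate 3. The summed counts were 56 in Atp7b-/- and 27 in wild type livers, or 1.05 CPM (0.793 to 1.36) and 0.692 CPM (0.456 to 1.01) with exact Poisson 95% intervals, which cover counting error only.

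Hells (ENSMUSG00000025001, chromosome 19, 38930915 to 38971051, plus strand), the remodeller, differed by layout and not detectably by genotype. Its counts were 6, 4 and 90 in Atp7b-/- livers 1 to 3, against 51, 13 and 0 in wild type livers 1 to 3. The paired-end libraries of both genotypes were the highest, at 3.10 CPM in Atp7b-/- and 2.33 CPM in wild type, and the 0 of wild type replicate 3 allows up to 0.556 CPM. The genotype estimate was -0.10 (SE 0.69, 95% interval -1.67 to 1.46, adjusted p = 0.969), an interval that is wide in both directions at this depth. It was -0.64 without Atp7b-/- replicate 3, -0.38 without wild type replicate 3 and 0.83 without wild type replicate 2. The layout estimate, paired-end over single-end, was 2.31 (SE 0.67, adjusted p = 0.0185).

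Dnmt3a (ENSMUSG00000020661, chromosome 12, 3806007 to 3914443, plus strand) is an enzyme for new methylation marks and was one of the more abundant genes. It stood at 44.4, 53.6 and 26.0 CPM in Atp7b-/- livers 1 to 3, against 36.7, 49.9 and 45.0 CPM in wild type livers 1 to 3. The lowest value was again a paired-end library in each genotype, and single-end values of the genotypes overlapped. Its log2 fold change was -0.14 (SE 0.20, 95% interval -0.59 to 0.31, adjusted p = 0.815), and it was 0.055 without Atp7b-/- replicate 3 and -0.23 without wild type replicate 3. Dnmt3aos, an antisense transcript within the gene, had 12 counts in Atp7b-/- and 3 counts in wild type libraries, few beside the 1897 and 1632 counts of Dnmt3a.

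Dnmt3b (ENSMUSG00000027478, chromosome 2, 153649450 to 153687730, plus strand), the other enzyme for new marks, had the largest estimate of the 7 genes, and it rested on Atp7b-/- replicate 3. It stood at 3.73, 1.82 and 11.7 CPM in Atp7b-/- livers 1 to 3, against 2.61, 2.55 and 2.22 CPM in wild type livers 1 to 3. The wild type libraries were close together across layouts (2.46 ± 0.206 CPM, SD, n = 3), while the Atp7b-/- libraries lay on both sides of them (5.74 ± 5.22 CPM). The log2 fold change was 0.99 (SE 0.49, 95% interval -0.11 to 2.10, adjusted p = 0.403, edgeR). It was 0.26 without Atp7b-/- replicate 3, 1.10 without wild type replicate 3 and 0.26 without wild type replicate 1, the other paired-end library. A change of the genotype difference between layouts cannot be told apart from labelled sex here. By transcripts, both paired-end libraries had little Xist and high Y-linked levels. Between layouts the genotype difference was 2.11 in the paired-end and 0.13 in the single-end libraries, and the test of that difference had an unadjusted p of 0.0404 in edgeR's quasi-likelihood fit and an adjusted p of 0.987. Only 2 of 12988 genes (0.0154%) passed that test, none of them among these 8.

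The closest relatives of Dnmt3b had few counts. Dnmt3c, a rodent duplicate of Dnmt3b that silences young transposons in the male germ line and lies next to it, had 3 counts in Atp7b-/- replicate 3 and 0 in the other 5 libraries, and Dnmt3l, the catalytically inactive partner of the de novo enzymes, had 4 counts there and 0 in the others. Reads shared between such copies may have been dropped or split: how multiply mapped reads were handled is not stated in the labels. The count ratio of Dnmt3a to Dnmt3b, which needs no scaling between libraries, was 11.9, 29.4 and 2.22 in Atp7b-/- livers 1 to 3, against 14.1, 19.6 and 20.3 in wild type livers 1 to 3. Dnmt3b thus came nearest to Dnmt3a in Atp7b-/- replicate 3.

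Tet3 (ENSMUSG00000034832, chromosome 6, 83362373 to 83459084, minus strand), the most abundant of the oxidase genes, had the smallest p of the 7. It stood at 53.4, 49.0 and 25.3 CPM in Atp7b-/- livers 1 to 3, against 40.2, 74.4 and 70.4 CPM in wild type livers 1 to 3. Within each layout every Atp7b-/- value lay below every wild type value, but the paired-end wild type library lay below both single-end Atp7b-/- libraries, so the genotypes overlapped. The log2 fold change was -0.56 (SE 0.18, 95% interval -0.95 to -0.16), with an adjusted p of 0.168 in edgeR's quasi-likelihood test, 0.03 in DESeq2 and 0.122 in limma-voom. The estimate lay between -0.60 and -0.49 over the 13 alternatives, with adjusted p from 0.03 to 1, and the adjusted edgeR p did not pass when any library was left out. The estimate was -0.49 without Atp7b-/- replicate 3 and -0.60 without wild type replicate 3. Of the 7 genes Tet3 was the only one with single-end ranges apart and a paired-end difference of the same sign, a pattern held by 29.2% of all tested genes. B230319C09Rik, a transcript on the opposite strand within the gene, had 43 counts in Atp7b-/- and 21 counts in wild type libraries, against 2000 and 2136 counts of Tet3.

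Tet2 (ENSMUSG00000040943, chromosome 3, 133463679 to 133545139, minus strand), well known from blood cells, had values below wild type in the single-end Atp7b-/- libraries and above it in the paired-end one. It stood at 16.0, 12.9 and 24.9 CPM in Atp7b-/- livers 1 to 3, against 23.4, 27.1 and 19.1 CPM in wild type livers 1 to 3. The paired-end libraries differed by a log2 value of 0.09 and the single-end ones by -0.66, and the test of that difference had an adjusted p of 0.987 (edgeR). That difference between layouts cannot be told apart from labelled sex, while by transcripts both paired-end libraries had little Xist and high Y-linked levels. The log2 fold change over both layouts was -0.41 (SE 0.25, 95% interval -0.98 to 0.15, adjusted p = 0.502, edgeR). It was -0.67 without Atp7b-/- replicate 3, -0.48 without wild type replicate 3 and -0.17 without wild type replicate 2.

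Tet1 (ENSMUSG00000047146, chromosome 10, 62804570 to 62908996, minus strand), known from embryonic stem and germ cells, was near the limit of detection. It had 2, 2 and 20 counts in Atp7b-/- livers 1 to 3, against 9, 4 and 2 counts in wild type livers 1 to 3. The sums of 24 and 15 counts correspond to 0.45 CPM (0.288 to 0.67) in Atp7b-/- and 0.384 CPM (0.215 to 0.634) in wild type livers, with exact Poisson 95% intervals. Without the filter its log2 fold change was -0.09 (SE 0.92, adjusted p = 0.976, edgeR). The deepest libraries, both paired-end, held 20 and 9 of these counts.

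**Figure D2:**
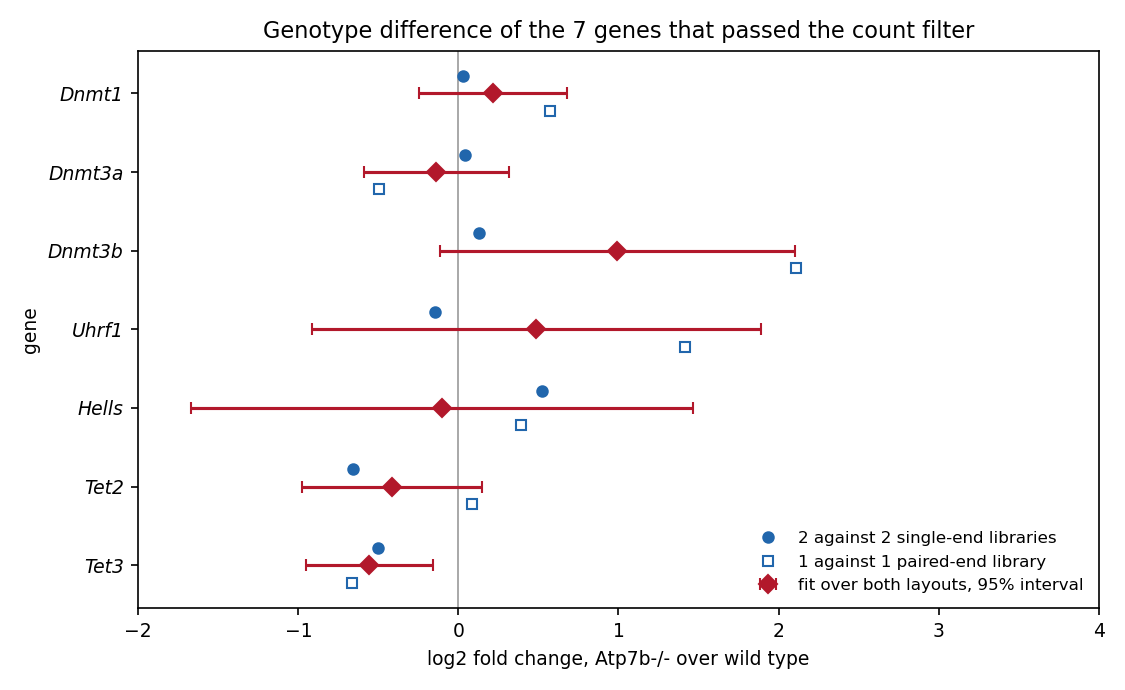
Log2 fold change of Atp7b-/- over wild type (x axis) for the 7 tested genes, as diamonds with 95% intervals from the fit over both layouts, and as differences of mean log2 CPM within the single-end (circles) and the paired-end libraries (squares). Only the Tet3 interval lies to one side of 0 (-0.95 to -0.16), and the widest gap between layouts is that of Dnmt3b, with 2.11 in the paired-end and 0.13 in the single-end libraries.

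In the same fit 4 of the 7 were called between paired-end and single-end libraries, beside 52.8% of all tested genes. Tet3, Dnmt1 and Dnmt3a were lower in paired-end libraries, by log2 values of -0.93, -0.87 and -0.64 (adjusted p = 0.00365, 0.0103 and 0.0345, edgeR's quasi-likelihood test), and Hells was higher. Dnmt3b, Tet2 and Uhrf1 had estimates of 1.21, 0.41 and -0.83 that did not pass (adjusted p = 0.0597, 0.209 and 0.302). The genotype difference had the same sign in both layouts in 4 of the 7 genes (Dnmt1, Dnmt3b, Hells and Tet3), against 58.1% of all tested genes. For Hells both signs were positive while the fit over all libraries gave -0.10.

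Compared per kilobase, the genes formed a graded order in which the ranges of all neighbours overlapped. Levels were expressed as RPKM, the CPM divided by the merged exon length in kilobases. Tet3 averaged 2.55 ± 0.904 RPKM in Atp7b-/- and 3.70 ± 1.121 RPKM in wild type livers (SD, n = 3 each). Dnmt1 averaged 2.97 ± 0.666 RPKM in Atp7b-/- and 2.68 ± 1.05 RPKM in wild type livers. Dnmt3a averaged 2.48 ± 0.845 RPKM in Atp7b-/- and 2.64 ± 0.402 RPKM in wild type livers. The ranges of these 3 overlapped. Tet3 exceeded Dnmt1 in 3 of 6 libraries, and Dnmt1 exceeded Dnmt3a in 5 of 6. Tet2 came next with 1.06 ± 0.368 RPKM in Atp7b-/- and 1.38 ± 0.238 RPKM in wild type livers, below Dnmt3a in 6 of 6 libraries. Dnmt3b stood below Tet2 in 5 of 6 libraries, Uhrf1 below Dnmt3b in 5 of 6 and Hells below Uhrf1 in 4 of 6. Tet1 was the lowest, with 0.0234 ± 0.0191 RPKM in Atp7b-/- and 0.0242 ± 0.00232 RPKM in wild type livers. With the length of the longest coding transcript in place of the merged exons, Dnmt3a and Dnmt1 changed places and the rest of the order was the same.

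**Figure D3:**
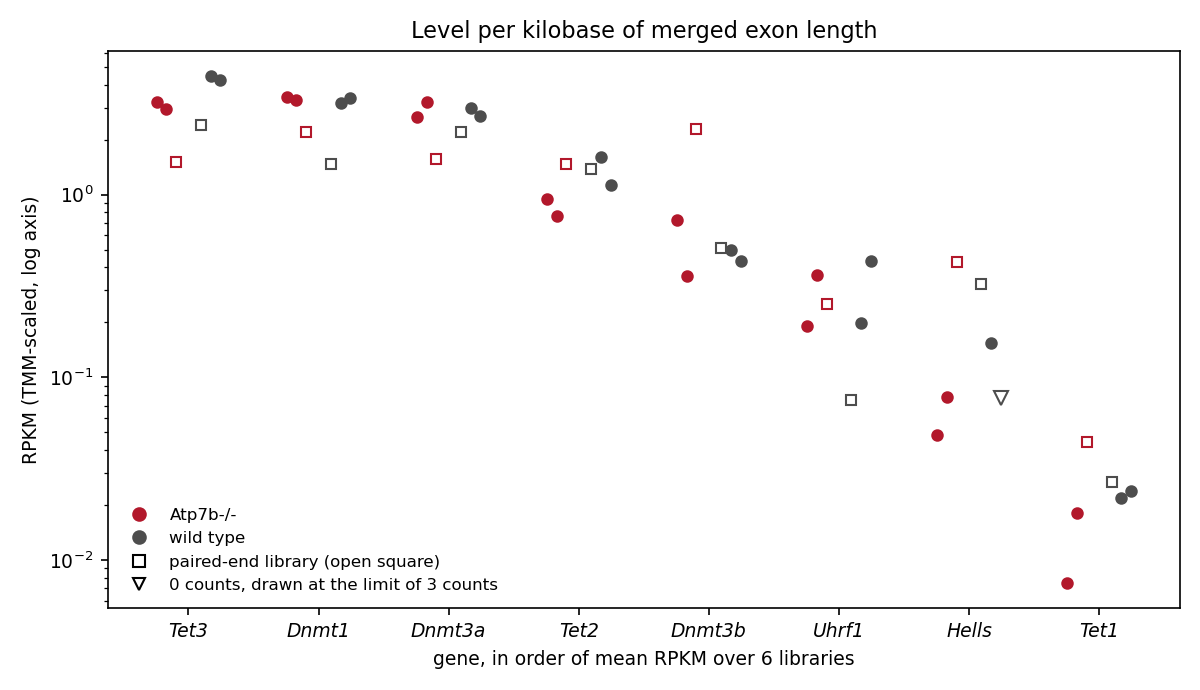
RPKM (log axis) of the 8 genes in the order of their mean over 6 libraries, with Atp7b-/- in red left of wild type in grey, open squares for paired-end libraries and a triangle at the limit of 3 counts for the library with 0 counts of Hells. Tet3, Dnmt1 and Dnmt3a overlap at the top, and Tet1 lies lowest, between 0.00754 and 0.0446 RPKM.

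Within libraries the balance of the oxidase genes also followed layout. The count ratio of Tet3 to Tet2 was 3.34, 3.79 and 1.02 in Atp7b-/- livers 1 to 3, against 1.72, 2.75 and 3.69 in wild type livers 1 to 3. Both paired-end libraries had the lowest ratio of their genotype. The ratio of Dnmt3a to Dnmt1 was 1.76, 2.21 and 1.597 in Atp7b-/- livers 1 to 3, against 3.37, 2.13 and 1.80 in wild type livers 1 to 3, and these overlapped.

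The genes whose profiles were nearest to each of the 7 were found by the root mean square difference of centred log2 CPM over the 6 libraries, among 12177 other protein-coding genes. Near to Dnmt3b was Nfil3, a transcription factor gene (0.27, where the median gene differed by 0.99), with a log2 fold change of its own of 0.92 that did not pass (adjusted p = 0.43, edgeR). For the others the nearest were Mst1 and Sec31a (Dnmt1), Zxdc and Cisd1 (Dnmt3a), Hist1h4i and Rrp12 (Uhrf1), Akr1b10 and Zup1 (Hells), Btk and Rasgrp3 (Tet2), and Plekha6 and Nmnat3 (Tet3). None of the neighbours named here was called between the genotypes. With 6 libraries, of which layout is a main divider, such nearness describes these libraries only.

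The partners of these enzymes were examined with the same test. In 6 lists (maintenance partners, de novo partners, TET cofactors, base repair after TET, methyl-CpG readers and methyl donor supply) 55 of 62 genes were tested and none was called, beside 2.49% of all genes. An unadjusted p under 0.05 was found for 10 of the 55, beside 14.5% of all genes. DESeq2 called 3 (Ung, Xrcc1 and Gadd45g), beside 5.93% of all genes, and limma-voom 1 (Xrcc1), beside 3.05%. Without the filter on low counts edgeR called 3 partner genes, Ung and Xrcc1 among them, beside 4.44% of all genes. The median log2 fold change of the 55 was -0.03. In the maintenance list, Cdca7, which recruits Hells to chromatin, stood at 0.816, 1.54 and 1.76 CPM in Atp7b-/- livers 1 to 3, against 3.06, 2.29 and 1.85 CPM in wild type livers 1 to 3. Those ranges did not overlap, and the log2 fold change was -0.86 (SE 0.42, adjusted p = 0.396). The replication clamp gene Pcna, on which Dnmt1 rides at the fork, differed by a log2 value of -0.66 (SE 0.44, adjusted p = 0.558).

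The widest differences among partners were those of Gadd45g, in the TET cofactor list, and Ung, in the base repair list. Xrcc1, the scaffold of base excision repair, stood at 33.7, 24.6 and 21.2 CPM in Atp7b-/- livers 1 to 3, against 8.87, 15.6 and 17.4 CPM in wild type livers 1 to 3. Every Atp7b-/- value was above every wild type value, and the log2 fold change was 0.98 (SE 0.22), with an adjusted p of 0.0583 in edgeR, 0.00602 in DESeq2 and 0.044 in limma-voom. Ung, the uracil DNA glycosylase, averaged 2.65 ± 2.32 CPM in Atp7b-/- and 10.3 ± 6.19 CPM in wild type livers (log2 fold change -1.85, SE 0.50, adjusted p = 0.118 in edgeR and 0.0122 in DESeq2). Gadd45g, a stress gene of a family linked to active demethylation, averaged 18.9 ± 14.1 CPM in Atp7b-/- and 99.4 ± 48.5 CPM in wild type livers (log2 fold change -2.83, SE 0.98, adjusted p = 0.314 in edgeR and 0.0388 in DESeq2). Tdg, the glycosylase that removes the TET products, differed by a log2 value of 0.12 (SE 0.42, adjusted p = 0.932).

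Among the readers of methylated DNA, Zbtb33 (Kaiso) and Zbtb4, zinc finger proteins that bind it, differed by log2 values of 0.68 and -0.39 that did not pass (adjusted p = 0.286 and 0.484, edgeR). In the methyl donor list, Gnmt, which consumes surplus methyl donor, averaged 2269 ± 1527 CPM in Atp7b-/- and 3551 ± 2450 CPM in wild type livers (log2 fold change -0.65, SE 0.23, adjusted p = 0.226).

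S phase genes were set beside these genes because maintenance methylation runs with replication. Of 20 tested S phase genes none was called by edgeR, beside 2.49% of all genes. An unadjusted edgeR p under 0.05 was found for 4, beside 14.5% of all genes. DESeq2 and limma-voom called 0, beside 5.93% and 3.05% of all genes. The median log2 fold change of the list was -0.04. The summed level of the list was 107 to 139 CPM in Atp7b-/- and 114 to 138 CPM in wild type livers, which overlap. The helicase gene Mcm4 differed by a log2 value of -0.93 (SE 0.37, adjusted p = 0.296) and the nucleotide reductase gene Rrm1 by 0.55 (SE 0.22, adjusted p = 0.289). Of the mitosis genes 11 of 17 rose, beside 1.9% of all genes, with a median of 2.65, and the list summed to 115 to 139 CPM in Atp7b-/- and 12.5 to 24.2 CPM in wild type livers. Among them Cdc20, which activates the anaphase-promoting complex, had a fitted log2 rise of 4.67 (SE 0.38, adjusted p = 0.000951) and the spindle checkpoint gene Bub1b one of 3.88 (SE 0.36, adjusted p = 0.001003). The mitosis count was 5 without Atp7b-/- replicate 3 or without wild type replicate 1, 11 without wild type replicate 3, and 0 without the layout term. Whether the lists differ from each other was not tested.

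**Figure D4:**
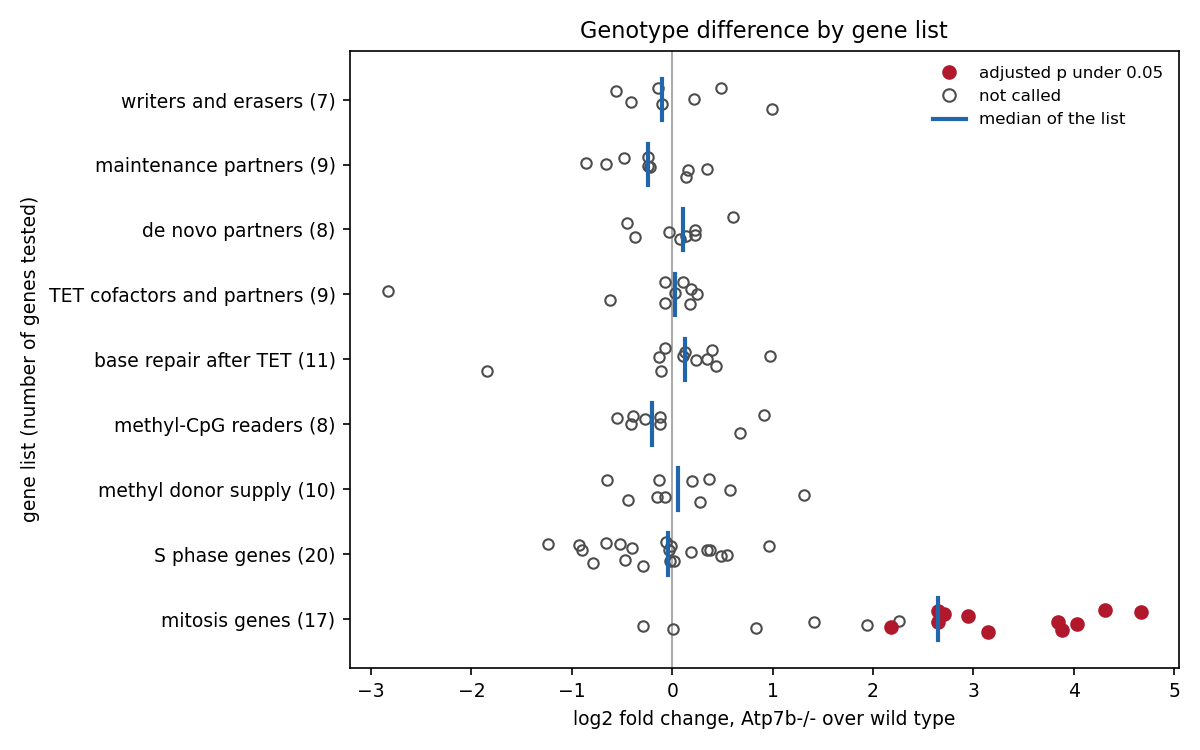
Log2 fold change of Atp7b-/- over wild type (x axis) for each tested gene, by list (y axis, number of tested genes in brackets), with red points for an adjusted p under 0.05, open points for genes not called and a blue bar for the median. Red points appear only in the mitosis list, 11 of 17, and the medians of the 7 methylation lists lie between -0.24 and 0.12.

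Germline genes that DNA methylation is known to keep silent, and imprinted genes, were looked at separately. Imprinted genes are expressed mainly from a single parental allele, and counts per gene do not separate the alleles. Of 14 germline genes with methylated promoters in somatic cells, 2 passed the filter. Neither was called by edgeR, DESeq2 or limma-voom, where 2.49%, 5.93% and 3.05% of all genes were, and 2 genes are too few to compare with those shares. Dazl and Taf7l had 0 counts in all 6 libraries. The list summed to 1.54 to 7.85 CPM in Atp7b-/- and 1.53 to 4.71 CPM in wild type livers, highest in the paired-end library of each genotype. Of 16 imprinted genes, 14 had a row and 11 were tested. None of these 11 was called by edgeR, DESeq2 or limma-voom, beside 2.49%, 5.93% and 3.05% of all genes. Of the 11, 1 had an unadjusted edgeR p under 0.05, beside 14.5% of all genes. That was Plagl1, a growth regulator expressed from the paternal allele, at 1.11, 0.842 and 2.07 CPM in Atp7b-/- livers 1 to 3, against 4.07, 2.89 and 2.22 CPM in wild type livers 1 to 3 (log2 fold change -1.21, SE 0.38, adjusted p = 0.168). Peg10, a paternally expressed gene derived from a retrotransposon, did not pass the filter and is named after its values were seen. It had 1, 5 and 321 counts in Atp7b-/- livers 1 to 3, against 14, 3 and 0 counts in wild type livers 1 to 3, so nearly all of them came from 1 library. It was called by edgeR without the filter (log2 fold change 3.15, SE 0.73, adjusted p = 0.000797) and without wild type replicate 2 (4.11, SE 0.90, adjusted p = 0.0448), where 2.34% of all genes were called. These are transcript levels, and methylation itself was not measured.

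Whole liver holds several cell types, and in such samples fewer cells of a type and less RNA per cell cannot be told apart. The 8 hepatocyte markers were detected in every library. None of the 43 tested markers in 6 cell type lists was called by edgeR, beside 2.49% of all genes. An unadjusted edgeR p under 0.05 was found for 6, beside 14.5%. DESeq2 called 2, Cd4 and Sox9, beside 5.93%, and limma-voom 0, beside 3.05%. Without the filter on low counts edgeR called 4, Spp1, Cd4, Hbb-bs and Sox9, all higher in Atp7b-/-, beside 4.44% of all genes. No marker was at 0 in all 6 libraries. Hepatocyte markers summed to 49307 to 62314 CPM in Atp7b-/- and 73848 to 96107 CPM in wild type livers. Those sums do not overlap, and albumin (Alb) was their largest part. The CPM ranges of Alb itself overlapped, with 27654 to 49860 in Atp7b-/- and 42891 to 77711 in wild type livers. Alb was not called (log2 fold change -0.72, SE 0.27, adjusted p = 0.256, edgeR). Of the 8 hepatocyte markers, 6 had negative and 2 had positive estimates, with a median log2 fold change of -0.21. Erythroid and progenitor markers summed to 230 to 322 CPM in Atp7b-/- and 67.1 to 228 CPM in wild type livers, which are only just apart. Alas2 was the largest part of that sum in every library but wild type replicate 2. Its own CPM ranges overlapped, and it was not called (log2 fold change 1.52, SE 0.86, adjusted p = 0.518, edgeR). Of the 7 tested markers in that list, 4 had positive and 3 had negative estimates, with a median log2 fold change of 0.11. Lymphocyte markers summed to 9.12 to 23.2 CPM in Atp7b-/- and 7.04 to 17.1 CPM in wild type livers. Endothelial markers summed to 186 to 374 CPM in Atp7b-/- and 195 to 526 CPM in wild type livers. Kupffer cell markers summed to 198 to 280 CPM in Atp7b-/- and 179 to 365 CPM in wild type livers. Stellate and biliary markers summed to 272 to 401 CPM in Atp7b-/- and 199 to 427 CPM in wild type livers. Their part in the levels of the DNA methylation genes was not tested.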

How the data were processed

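Liver RNA of Atp7b-/- and wild type mice, in 3 libraries each, was sequenced with reads of 54 bases. The authors deposited raw counts per Ensembl gene, 1 column per library. STAR 2.4, featureCounts, edgeR 3.8 and GRCm38 are named, per the submitters' processing notes. The sources used here do not give the annotation, the strand and multiple-mapping settings, or whether a read pair counts once.

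Symbols and exon lengths came from GENCODE M21 (GRCm38), which named 40340 of 41388 identifiers. Counts were fitted over all 12988 genes that passed edgeR's filter (minimum count 10) with edgeR 4.0.16 in R 4.3.3: TMM scaling, robust quasi-likelihood test, layout and genotype as terms, Benjamini-Hochberg adjustment, calls at 0.05. Log2 CPM used a prior count of 2. SE is the log2 fold change divided by the root of F, and 95% intervals use the fit's degrees of freedom. The fit was tested on simulated data. Alternatives were DESeq2 1.42.0, limma-voom 3.58.1, other scaling, filter and covariates, and leaving out each library. Every pair of libraries differed beyond counting noise (chi-square per gene 37.1 to 492). Promoter sequences are RefSeq's, GRCm38.p6, and all 8 genes matched. Of 200 list genes 198 matched. All 8 members were named, with at most the 3 smallest p per list and the 2 nearest profiles per member, and Tdg, Peg10 and the markers called by an alternative were added after their values were seen. Some genes that this rule names are not reported here. The members and lists were chosen with earlier results of these data known.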

Additional observations from a re-analysis of the deposited data

How the results depend on the processing

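Across 13 alternatives none of the 7 genes was called by edgeR or limma-voom, and DESeq2 called 1, Tet3. Dnmt1, Dnmt3b, Tet2 and Tet3 kept their direction in all 13. Dnmt3a turned to 0.046 in the single-end libraries alone and, when any 1 library was left out, ranged from -0.26 to 0.055. Uhrf1 turned to -0.17 in the single-end libraries alone and ranged from -0.18 to 0.98. Hells turned to 0.17 without the layout term and 0.39 in limma-voom, and ranged from -0.65 to 0.83. Hells did not pass the filter in the single-end libraries alone and has no value there. The cause was not tested. Over all genes the 323 calls became 0 without the layout term, 0 with labelled sex in its place, 126 in the single-end libraries, 770 in DESeq2, 1116 without the filter, and 119 to 323 when any 1 library was left out. Where a paired-end library is left out, the other is fitted exactly. Those fits rest on the same genotype comparison as the single-end libraries alone, so they are not separate alternatives for the direction. No paired analysis was possible because the labels give no replicate numbers that join an Atp7b-/- with a wild type library. Uhrf1, Hells and Tet1 are limited by depth.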
